A study of Drosophila melanogaster with 4 samples.

Results

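The base of chromosome arm 2L is where the assembled euchromatin of *Drosophila melanogaster* runs into the pericentric heterochromatin of chromosome 2. It was examined here for regions enriched for Su(var)3-7. The interval is the last 5 Mb of the 2L sequence of FlyBase release 5, 2L 18011545 to 23011544, and a region belongs to it when its midpoint lies inside. The authors' combined list holds 562 such regions among 10603 in all. Replicate 1 has 397 of 6098 and replicate 2 has 368 of 6295. Position alone chose these regions, so their widths and scores were free to vary.

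All libraries come from wild-type Oregon-R embryos of the 14 to 16 h stage, and the labels give 1.8% formaldehyde as the fixative. ChIP DNA was pulled down with the antibody Q3448 against Su(var)3-7 in 2 libraries, and 2 input libraries of genomic DNA served as their controls. Whole embryos were used, so the regions are an average over cell types. The labels do not say whether the replicates were separate embryo collections, and the lists hold no read counts, so depth is unknown.

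Su(var)3-7 carries zinc fingers and is found in heterochromatin. Extra or missing copies of its gene change position-effect variegation, the patchy silencing of a gene placed next to heterochromatin. The protein is known to bind HP1, the chromodomain protein that reads methylated histone H3 in silent chromatin, and Su(var)3-9, the methyltransferase that writes that mark. Near a centromere, chromatin passes from gene-rich sequence to compact sequence rich in transposon remnants and satellite repeats, and the base of an assembled arm holds part of that passage.

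Su(var)3-7 regions lay along the base of 2L in 3 stretches. Next to the proximal end, over 0.9 Mb, wide and high-scoring regions covered 71.4% ± 5.70 of the bases. From there to 4.5 Mb came a belt of narrower and lower-scoring regions that covered 23.6% ± 1.93. The outer 0.5 Mb was nearly bare, at 3.24% ± 0.595 (mean ± SD, n = 2 for each). The interval as a whole was covered over 31.9% (replicate 1), 28.4% (replicate 2) and 44.5% (combined list). The inputs have no region list and there are only 2 ChIP replicates, so no test across samples was made and the values below are given per replicate.

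**Figure D1:**
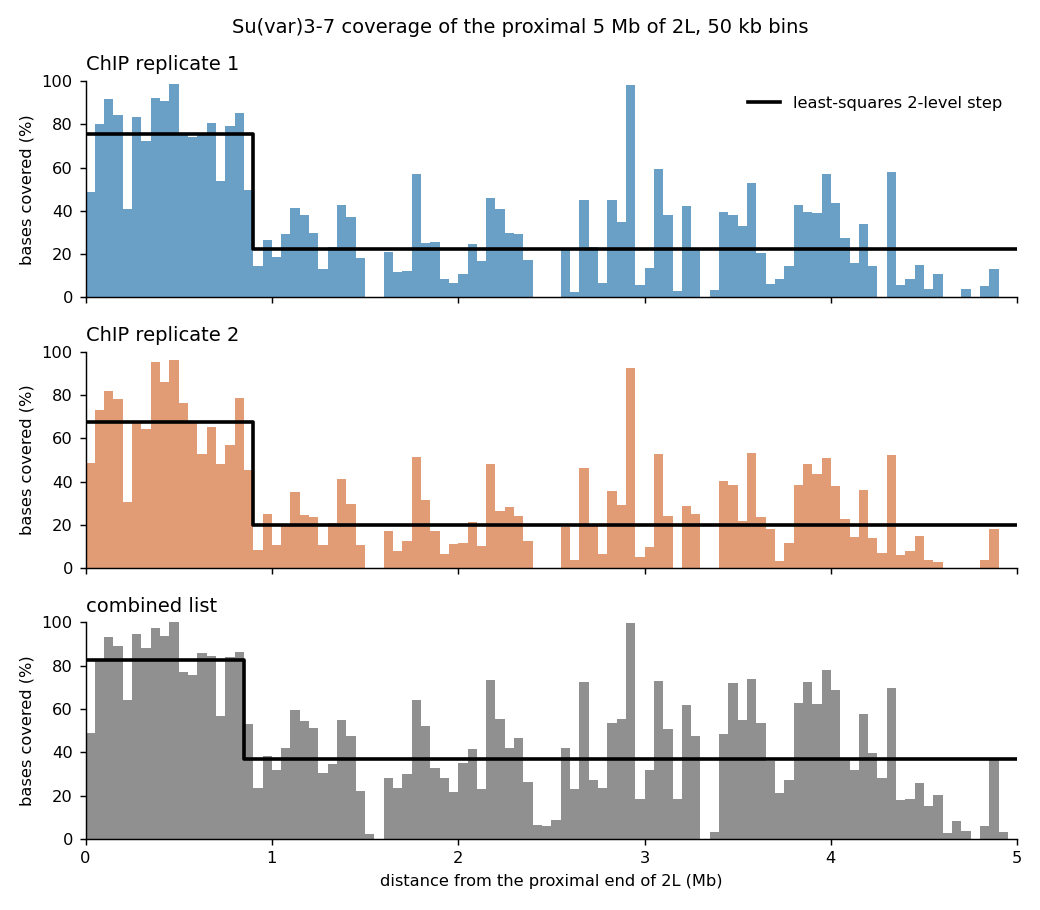
Percent of bases inside enriched regions (vertical axis) in 50 kb bins by distance from the proximal end of 2L in Mb (horizontal axis), for ChIP replicate 1, ChIP replicate 2 and the combined list. The black line is the split into 2 levels with the least squared error: it lies at 0.9 Mb in both replicates and at 0.85 Mb in the combined list.

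The dense stretch ended within about 100 kb. Coverage by 50 kb bins was 85.5% in replicate 1 and 78.7% in replicate 2 from 800 to 850 kb, 49.4% and 45.3% from 850 to 900 kb, and 14.7% and 8.38% from 900 to 950 kb. The value from 850 to 900 kb was not itself unusual. Deeper in the dense stretch, coverage was 48.9% and 48.8% from 0 to 50 kb, and 41.05% and 30.5% from 200 to 250 kb. When the 50 kb bins were split into 2 levels with the least squared error, the step fell 0.9 Mb from the proximal end in each replicate, at 2L 22111544. Coverage was 75.4% on the proximal side and 22.3% on the distal side in replicate 1, and 67.3% and 19.8% in replicate 2. The split took up 55.0% of the variance among bins in replicate 1 and 51.6% in replicate 2. In the combined list the step lay at 0.85 Mb, with 82.5% on the proximal side and 36.7% on the distal side.

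All 9 bins of 100 kb within the dense stretch were covered over at least 62.2% in replicate 1, with a median of 74.97% and a highest value of 94.7%. The same bins ran from 48.8% through a median of 62.0% to 91.0% in replicate 2. Over the 41 bins of 100 kb from 0.9 to 5 Mb the values ran from 0 through 23.4% to 52.1% in replicate 1, and from 0 through 18.4% to 48.9% in replicate 2. The limit was placed on the coverage itself, so the separation of its sides describes the fit and is no separate evidence. Widths and gaps make up coverage, and scores rose with width. The contrasts of widths, gaps and scores across this limit, given below, are therefore not independent of it either.

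Wider regions gave way to narrow ones just before the step. Within 50 kb of it on the proximal side, replicate 1 listed a region at 22141133 to 22147818 with a score of 1.63, and replicate 2 listed it at 22141106 to 22147776 with a score of 1.78. These scores lie at the 95.3 and 97.4 percentile of their lists. On its proximal side stood a region at 22150781 to 22157749 in replicate 1 (score 1.09) and 22151028 to 22157691 in replicate 2 (score 1.03). Distal to it came narrow ones, the last of them before the step at 22116771 to 22119627 in replicate 1 (score 0.970) and 22116855 to 22119543 in replicate 2 (score 0.854). The first region past the step was 22108318 to 22110628 in replicate 1 (score 0.628) and 22108213 to 22110703 in replicate 2 (score 0.692). Each of the regions named here was listed by both replicates, with ends that differed by under 1 kb.

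**Figure D2:**
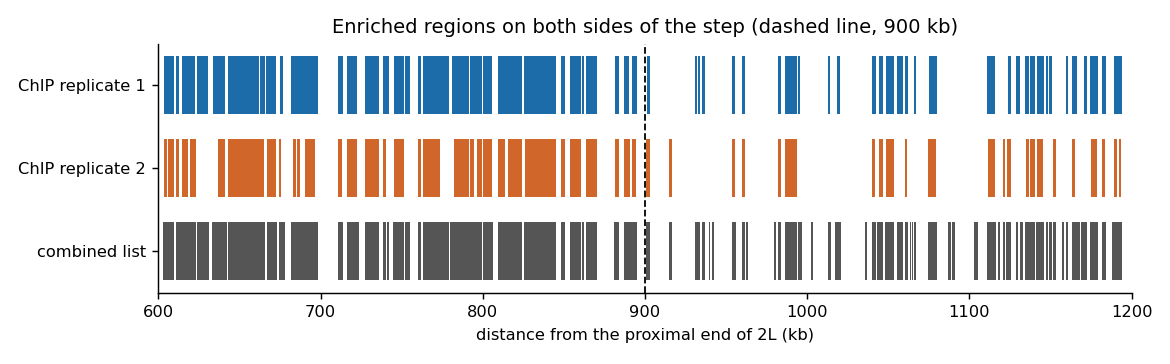
Enriched regions (bars, drawn to scale) between 600 and 1200 kb from the proximal end of 2L (horizontal axis, kb) in ChIP replicate 1, ChIP replicate 2 and the combined list. Most of the widest bars lie to the left of the dashed line at 900 kb, where narrow ones occur too, and to the right bars are mostly narrow and set apart, apart from one near 990 kb that measures 7164 bp in replicate 1 and 7660 bp in replicate 2.

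Widths and scores were higher in the dense stretch in all 3 lists, whereas the number of regions per Mb moved in no common direction. The dense stretch held 85.6 regions per Mb in replicate 1 and 103.3 in replicate 2, and the belt from 0.9 to 4.5 Mb held 86.4 and 74.7. From 0.9 to 5 Mb, the stretch used for widths and scores, the number was 78.0 and 67.1, below the dense stretch in both replicates. In the combined list the dense stretch had fewer, 84.4 per Mb against 128.9 in the belt and 118.5 from 0.9 to 5 Mb. Wide regions leave less room for others, so the number per Mb is not independent of width. When regions per 50 kb bin replaced covered bases, the step fell at 4.5 Mb in both replicates and at 4.6 Mb in the combined list. On the proximal side of that limit a bin held 4.31 regions in replicate 1 and 4.02 in replicate 2, against 0.9 and 0.6 on its distal side. This split took up only 16.1% and 18.1% of the variance among bins.

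Regions of the dense stretch had a median width of 6173 bp in replicate 1 and 4324 bp in replicate 2, against 2022 bp and 2113 bp from 0.9 to 5 Mb. The combined list gave 6594 bp and 2034 bp. Of the 77 replicate 1 regions in the dense stretch 26 measured 10 kb or more, and they held 69.2% of its region bases. In replicate 2 the count was 17 of 93, with 47.3% of the bases. From 0.9 to 5 Mb it was 7 of 320 and 5 of 275. Over the whole interval the shares of such regions were 33 of 397 and 22 of 368, beside 5.10% of all replicate 1 regions and 3.40% of all replicate 2 regions. In the combined list 38 of 562 were that wide, beside 4.09% of the whole list. The smallest width in the interval was 1301 bp in each replicate and 1001 bp in the combined list, which is also the smallest in each whole list, so narrower binding would not appear. With the limit at 1 Mb the median widths differed by 2528 bp ± 676 (SD, n = 2), and by 5075 bp after neighbours within 500 bp were merged.

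Beyond 1 Mb, width did not decline steadily with distance. By bins of 0.5 Mb the median width of replicate 1 was 6795 bp in the first and 3504 bp in the second. It stayed between 1846 and 2319 bp in the other 8. Replicate 2 had 5241 bp and 3331 bp in the first bins and 1803 to 2427 bp in the others. Both replicates thus reached the low level by 1 Mb.

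**Figure D3:**
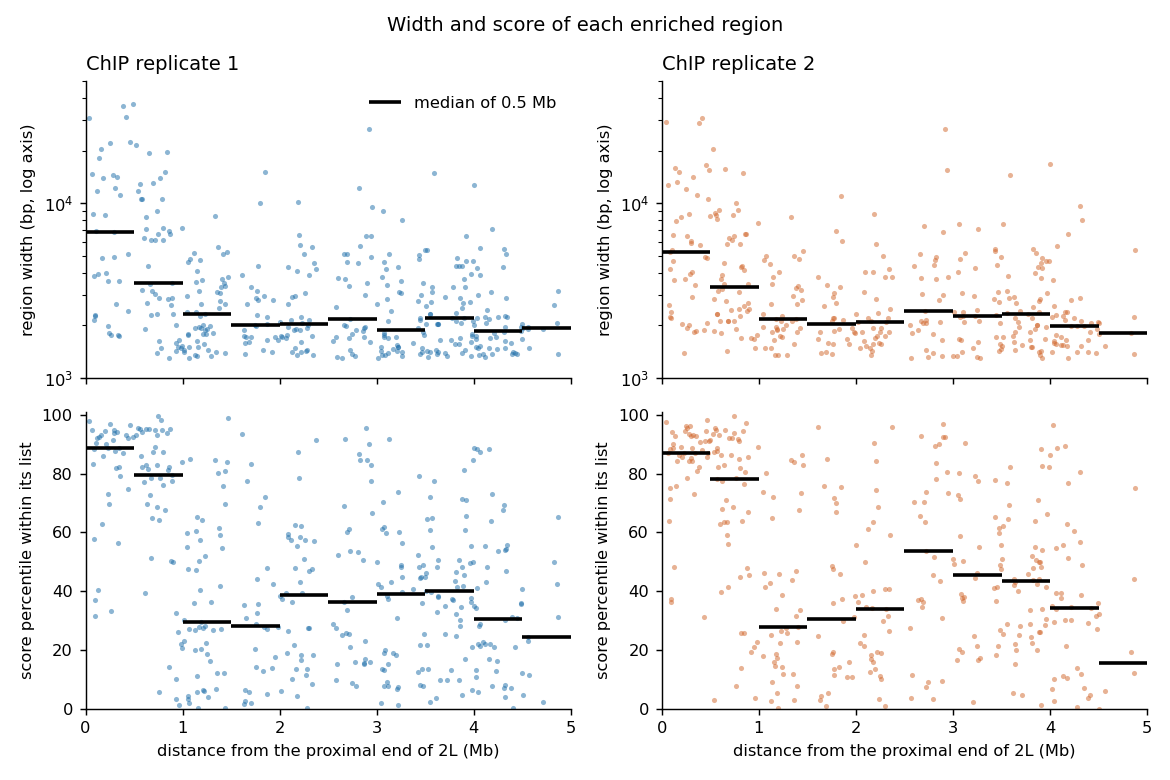
Each point is 1 enriched region of ChIP replicate 1 or ChIP replicate 2, by distance from the proximal end of 2L (Mb). The upper panels show width in bp on a log axis and the lower panels the percentile of its score within its own list, and black bars are medians of 0.5 Mb bins: medians of both drop within 1 Mb and stay low beyond it.

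The score is the authors' own value for each region. Neither its scale nor its log base is stated in the labels or headers, so it is given with its percentile, the percent of regions in the same list that score lower. In the dense stretch the median score was 1.21 (replicate 1), 1.16 (replicate 2) and 1.09 (combined list). From 0.9 to 5 Mb it was 0.549, 0.653 and 0.391. The median region thus stood at the 86.2 percentile of replicate 1 and the 85.7 percentile of replicate 2 in the dense stretch, against the 35.4 and 37.2 percentile from 0.9 to 5 Mb. Scores of the interval as a whole, at the 41.9 and 46.1 percentile, mix these populations.

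High scores were gathered in the dense stretch. Of its regions, 30 of 77 in replicate 1 and 30 of 93 in replicate 2 belonged to the highest-scoring 10.0% of their list, against 6 of 320 and 10 of 275 from 0.9 to 5 Mb. By 0.5 Mb bins the median percentile of replicate 1 was 88.8 and 79.5 in the first bins, then 29.6, 28.3, 38.7, 36.2, 39.2, 39.9, 30.5 and 24.4. Replicate 2 gave 87.2 and 78.4, then 27.7, 30.5, 33.9, 53.7, 45.4, 43.4, 34.1 and 15.7. From 1 to 4.5 Mb the medians thus stayed between 27.7 and 53.7, and they were lowest in the outer bin. Spearman's rho of score with distance was -0.357 over the 397 replicate 1 regions and -0.383 over the 368 replicate 2 regions. From 0.9 to 5 Mb it was 0.0335 (320 regions) and 0.0678 (275 regions). Regions of 1 library share depth, and neighbours share sequence, so these are descriptions.

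Wider regions also scored higher, with a rho of 0.798 in replicate 1 and 0.748 in replicate 2. Among regions under 3 kb alone, the median score of the dense stretch was 0.781 in replicate 1 (22 regions) and 0.8999 in replicate 2 (32 regions), against 0.506 (228) and 0.614 (198) from 0.9 to 5 Mb. Regions of 3 kb or more had medians of 1.35 and 1.25 in the dense stretch and 0.746 and 0.897 beyond it. Within either width class the dense stretch was thus the higher one in each replicate. The class of 3 kb or more is not matched for width. In the dense stretch 26 of its 55 regions in replicate 1 and 17 of 61 in replicate 2 measured 10 kb or more. Beyond it the counts were 7 of 92 and 5 of 77. The part of width in the score of this class was not tested. With the limit at 1 Mb in place of 0.9 Mb, the difference among regions under 3 kb was 0.163 ± 0.0518 (SD, n = 2), against 0.532 ± 0.0453 among all widths.

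Regions of the dense stretch stood close together, which partly follows from a limit placed on coverage. The median gap between neighbours was 1163 bp in replicate 1 and 1646 bp in replicate 2, against 3529 bp and 5108 bp from 0.9 to 5 Mb. Gaps under 1 kb made up 43.4% and 41.3% of all gaps in the dense stretch, against 24.8% and 18.7%. The longest gap was 22879 bp and 21613 bp in the dense stretch, and 174458 bp and 257411 bp further out.

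The widest region was 2L 22578857 to 22647369 in the combined list, 68513 bp wide with a score of 1.24. Replicate 1 covered 98.3% of it with 2 regions and replicate 2 covered 95.5% with 3. Next was 22507002 to 22566933, 59932 bp wide with a combined score of 1.45, which replicate 1 covered with 2 regions and replicate 2 with 6. The region nearest the proximal end, 22955314 to 22986012, measured 30699 bp and was 1 region in each replicate. Its scores were 1.94 (replicate 1), 1.79 (replicate 2) and 1.86 (combined list), and it ended 25532 bp before the end of the sequence. Of the 10 widest regions found in both replicates, 8 lay in the dense stretch. The other two lay in the belt, at 20079943 to 20112889 (32947 bp) and 20176766 to 20198442 (21677 bp).

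By score, the first of the regions held by both replicates was 22259831 to 22266734, 748.3 kb from the proximal end and 6904 bp wide. Replicate 1 gave it a score of 2.90, replicate 2 one of 2.94 and the combined list 2.88, at the 99.7, 99.6 and 99.6 percentile. It ranked 67 of 562 by combined width, and so was not among the widest. It was followed by the end region named above, by 22141067 to 22147827 next to the step (combined score 1.69), and by 22747803 to 22770658 (1.67). Of the 10 highest, 8 lay in the dense stretch, among them 22462712 to 22474493 (1.57) and 22445292 to 22458170 (1.53). The belt supplied 20115516 to 20122596 (1.62) and 20635327 to 20639544 (1.504).

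The belt was uneven, with islands of dense enrichment. No bin of 100 kb from 0.9 to 5 Mb was covered over 50% or more in both replicates. At 50 kb, a size chosen after the values were seen, 6 of 82 bins were. The densest was 2L 20061545 to 20111544, 2.9 Mb from the proximal end, at 98.4% (replicate 1), 92.6% (replicate 2) and 99.8% (combined list). It holds most of the wide region 20079943 to 20112889, with top scores of 1.34 (replicate 1), 1.42 (replicate 2) and 1.31 (combined list). On either side stood 20058354 to 20079828 (21475 bp, combined score 0.938) and the high-scoring 20115516 to 20122596, which scored 1.65 in replicate 1 and 1.73 in replicate 2. At 50 kb this cluster was covered above the mean level of the proximal stretch (75.4% and 67.3%), although it lies 2 Mb beyond the step. It did not exceed the fullest 50 kb bin there, at 98.7% in replicate 1 and 96.2% in replicate 2 (450 to 500 kb). Over the 100 kb from 2.9 to 3 Mb coverage was 52.1% in replicate 1 and 48.9% in replicate 2, below the mean level of the proximal stretch. The other 5 bins were covered over 53.1% to 56.1% on average over the replicates. They start 1.75, 3.05, 3.55, 3.95 and 4.3 Mb from the proximal end.

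Past the proximal Mb, the highest-scoring region held by both replicates was 21396313 to 21402098 from 1 to 2 Mb (combined score 1.296) and the one in the cluster above from 2 to 3 Mb (1.62). From 3 to 4 Mb it was 19023004 to 19027825 (1.11) and from 4 to 5 Mb 18941659 to 18949061 (1.06). All 4 scored below the 2.88 of the best region in the proximal Mb.

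Bare stretches lay in the outer sequence and in the belt. In none of the 3 lists was there a region over 112.5 kb at 18184720 to 18297230 and 94.2 kb at 18011545 to 18105694, both in the outer 0.5 Mb. In the belt the longest such stretches were 80.4 kb at 19635675 to 19716030, 77.0 kb at 21402146 to 21479144 and 65.4 kb at 21480155 to 21545601. The last pair are neighbours, parted by a single combined-list region of 1010 bp, so that the replicates list nothing over 144.3 kb at 21402146 to 21546426. Both flanks of that stretch were enriched, with the best region from 1 to 2 Mb ending at 21402098 in the combined list. Within the interval, the longest stretch that both replicates left bare was 174.5 kb at 20460865 to 20635322, where the combined list has 7 regions. The bare stretch at the distal limit of the interval was counted only as far as that limit. The genes and repeats in these stretches were not analysed here.

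Coverage fell again near the outer limit of the belt. It was 22.3% in replicate 1 and 21.2% in replicate 2 from 4 to 4.5 Mb, against 3.66% and 2.82% from 4.5 to 5 Mb. The bins of 50 kb from 4.35 to 4.5 Mb were already low, at 5.90% to 15.0% in replicate 1 and 6.10% to 14.9% in replicate 2, next to 58.2% and 52.3% from 4.3 to 4.35 Mb. The bin before that, from 4.25 to 4.3 Mb, was also low, at 0% and 6.76%. With 3 levels of coverage in place of 2, the outer step fell at 4.35 Mb in all 3 lists, with 25.9% in replicate 1 and 23.1% in replicate 2 on its proximal side and 5.07% and 4.38% on its distal side. The outer limit is therefore 4.35 Mb by bases and 4.5 Mb by number in the replicates. Both were fitted to these same lists, so the fall across them describes the fit. The next Mb outward, 5 to 6 Mb, had 1.98% and 2.46%, and 6 to 7 Mb had 5.33% and 5.31%. At the distal limit of the interval the first combined region inside is 18105695 to 18107309 (score 0.240), found in neither replicate. The last one outside is 17962291 to 17964247 (score 0.290). The limit of 5 Mb thus runs through sparse sequence, and no region crosses it.

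**Figure D4:**
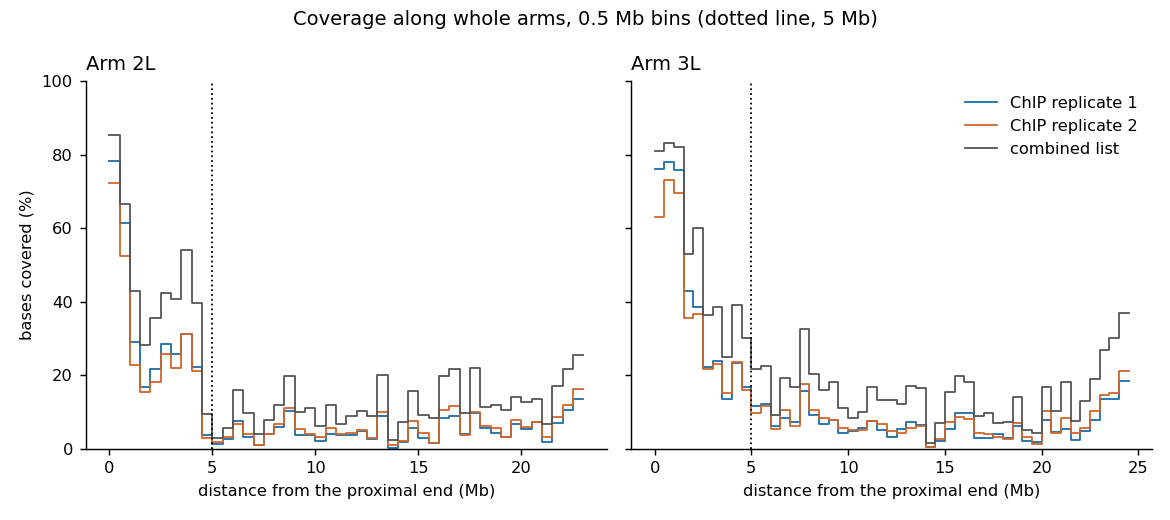
Percent of bases covered (vertical axis) in 0.5 Mb bins by distance from the proximal end (horizontal axis, Mb) along 2L on the left and 3L on the right, for both ChIP replicates and the combined list. A remainder under 0.5 Mb at the distal end of each arm is not drawn, and the dotted line marks 5 Mb: on 2L coverage falls just before it, to 3.66% and 2.82% in the replicates.

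Set against the rest of its arm, the interval was covered 5.57-fold ± 1.03 as densely (SD, n = 2). The coverage was 31.9% in replicate 1 and 28.4% in replicate 2 within the interval, against 5.06% and 5.86% over the rest of 2L. The interval is 21.7% of the arm's length and held 63.6% and 57.4% of its covered bases. The belt from 0.9 to 4.5 Mb was covered 4.36-fold ± 0.803 as densely as 2L beyond 5 Mb. It held 3.40-fold ± 0.646 as many regions per Mb. Its median width was 1.08-fold ± 0.0160 and its mean width 1.28-fold ± 0.00755 that of 2L beyond 5 Mb, and its median score lay 5.59 ± 2.07 percentile points higher (SD, n = 2 for each). The limit of 4.5 Mb is also the step in region number of the replicates, so the coverage and number ratios of the belt are not independent of it. From 0.9 to 5 Mb these ratios were 3.90 ± 0.726 and 3.06 ± 0.595 (SD, n = 2). For the whole interval, the ratio of 5.57 was 10.35 among the higher-scoring 50% of each list and 3.70 in the combined list. None of these differences was tested.

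The sequence 2LHet is a separately assembled 0.369 Mb of pericentric heterochromatin assigned to the same arm. The proximal 1 Mb of 2L was covered over 69.9% in replicate 1 and 62.3% in replicate 2, against 46.7% and 37.3% of 2LHet. Median widths were 5030 bp and 4171 bp in that Mb, against 2611 bp and 2417 bp on 2LHet, which has only 38 and 33 regions. Median scores lay at the 83.0 and 85.6 percentile in the proximal 1 Mb and the 82.7 and 83.6 percentile on 2LHet. Scores at the base of 2L thus came close to those of 2LHet, whereas coverage was higher by 1.58-fold ± 0.123 (SD, n = 2). The longest gap between regions was 58247 bp (replicate 1) and 58995 bp (replicate 2) on the short 2LHet. In the proximal 1 Mb of 2L it was 27370 bp and 37299 bp. The part of this gap in the coverage difference was not tested.

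The proximal 5 Mb of 3L, cut in the same way, had the same kind of step further out. It lay 0.9 Mb from the proximal end on 2L and 1.7 Mb on 3L in both replicates. Levels on the proximal side of the step were close, at 75.4% and 67.3% on 2L and 75.1% and 66.5% on 3L. On the distal side they were 22.3% and 19.8% on 2L and 23.6% and 22.8% on 3L. With 2 levels, the arms thus stood apart in the length of the dense stretch more than in the levels on either side. With 3 levels they also differed further out. The outer level was 5.07% and 4.38% on 2L, from 4.35 Mb, and 19.8% and 19.7% on 3L, from 2.4 Mb. The middle level was 25.9% and 23.1% on 2L and 37.8% and 38.1% on 3L. Over the full 5 Mb, 2L had 0.764-fold ± 0.0159 the coverage of 3L. The assembled sequence of the arms need not reach equally far toward the centromere, so a distance from its end is not a distance from the centromere.

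Replicates shared most of the interval. Of the replicate 1 regions 295 of 397 (74.3%, 95% Wilson interval 69.8 to 78.4) overlapped a replicate 2 region by at least 1 bp, beside 75.8% in the whole list. Of the replicate 2 regions 316 of 368 (85.9%, 81.9 to 89.1) overlapped replicate 1, beside 79.5%. In the dense stretch the shares were 68 of 77 (88.3%, 79.3 to 93.7) and 92 of 93 (98.9%, 94.2 to 99.8). From 0.9 to 5 Mb they were 227 of 320 (70.9%, 65.7 to 75.6) and 224 of 275 (81.5%, 76.4 to 85.6). These intervals cover counting error only and treat neighbouring regions as independent. Coverage was also higher in the dense stretch, at 75.4% and 67.3% against 22.3% and 19.8%, and its part in these shares was not tested.

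Replicate 2 covered less of the interval and lay mostly inside replicate 1. It shared 88.4% of its bases there with replicate 1, which shared 78.7% of its own, and in the dense stretch these were 98.5% and 87.95%. Beyond 5 Mb the order turned, with 64.7% of replicate 2 bases and 74.9% of replicate 1 bases shared. Replicate 1 listed more regions in the interval (397 against 368), whereas in the rest of 2L it listed fewer (404 against 458).

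**Figure D5:**
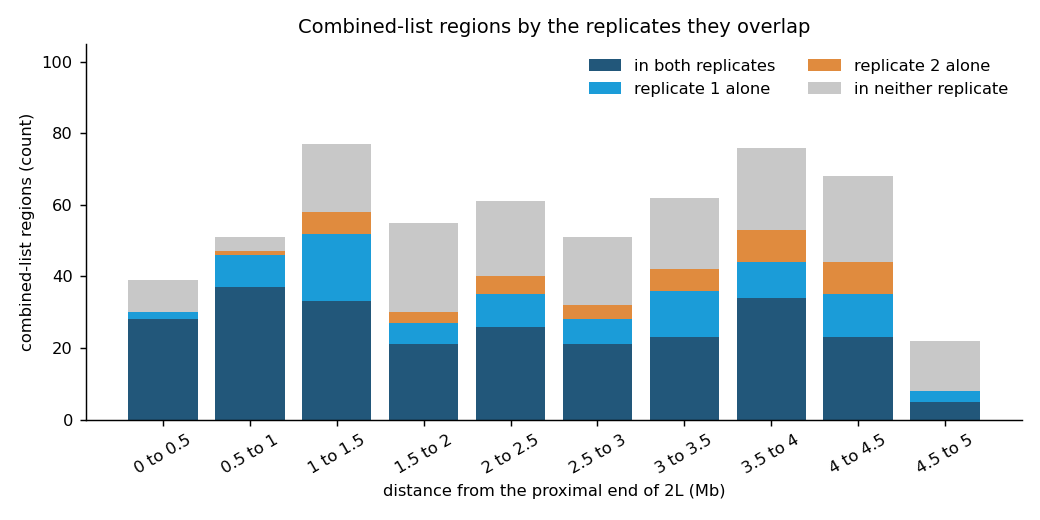
Number of combined-list regions (vertical axis) in 0.5 Mb bins by distance from the proximal end of 2L (horizontal axis, Mb), stacked by whether they overlap both replicates, 1 replicate or neither. The first bins have 39 and 51 regions, mostly found in both replicates, and the bin from 4.5 to 5 Mb has 22.

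Combined-list regions found in neither replicate were narrow, and 486 of the 562 combined regions of the interval lay from 0.9 to 5 Mb. Of its 562 regions in the interval 251 overlapped both replicates (44.7%, 95% Wilson interval 40.6 to 48.8), beside 38.6% of the whole list, and 178 overlapped neither (31.7%, 28.0 to 35.6), beside 38.7%. A further 90 overlapped replicate 1 alone (16.0%, beside 12.1% of the whole list) and 43 replicate 2 alone (7.65%, beside 10.6%). Regions in both made up 74.4% of the region bases, with a median width of 4276 bp and a median score of 0.604. Regions in neither had 1396 bp and 0.360. In the dense stretch 60 of 76 were in both replicates (78.9%, 68.5 to 86.6) and 9 in neither (11.8%). From 0.9 to 5 Mb 191 of 486 were in both (39.3%, 35.1 to 43.7) and 169 in neither (34.8%). That last share was below the 38.7% of the whole list and the 47.9% of 2L beyond 5 Mb. In the outer 0.5 Mb 14 of 22 were in neither.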

How the data were processed

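ChIP-seq region lists of 2 ChIP replicates and a combined list were analysed, and the input libraries have no list of their own. Per the submitters' processing notes the aligner was Bowtie 0.12.7, and coordinates are of FlyBase release 5, per the file headers. The deposited score is 1 value per region, used only within its own list. The sources used here name neither the caller nor its thresholds nor the treatment of repeat reads, each of which could change how many regions appear near the centromere. Coverage (percent of bases inside regions), widths, gaps, percentiles, overlaps (at least 1 bp) and the 2-level step (50 kb bins) were computed. The tools were Python 3.11.15, numpy 2.4.6, pandas 2.3.3 and scipy 1.17.1. The step code was run on 20 simulated intervals and found the step each time. Those intervals had a sharp step set on a bin limit and independent short regions, unlike 2L. They check the code only and say nothing of the position on 2L. Means carry the SD over 2 replicates. Named regions overlap both replicates: the 10 widest, the 10 highest-scoring and the best of each Mb, with the 5 longest bare stretches. The interval, zones and rules were chosen with earlier results of these data known. Release 5 gene positions and sequence were not used here, so regions are named by position.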

Additional observations from a re-analysis of the deposited data

How the results depend on the processing

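Of 51 values under alternative settings, 22 stayed within 1 SD of the replicates or within the counting interval and 29 moved beyond it. Part of the 22 was fixed in advance. Where the main value is a mean over 2 replicates, either replicate alone always lies within 1 SD of it. Leaving out 1 replicate therefore could not count as a move there, and such values are those of the other replicate. The score and width differences, the values that could change sign, stayed positive in every setting run. Without either replicate, coverage was 28.4% to 31.9%, the ratio to the rest of 2L 4.85 to 6.30, the step 900 kb, the score difference 0.500 to 0.564 and the width difference 2050 to 3006 bp. The higher-scoring 50% of each list gave a coverage of 21.2%, a ratio of 10.35, a score difference of 0.395 and shares of 49.6% (combined regions in both replicates), 78.9% (replicate 1 in replicate 2) and 89.3% (replicate 2 in replicate 1). The combined list gave 44.5%, a ratio of 3.70, a step at 850 kb and a score difference of 0.613. Counted as regions per Mb the ratio was 3.22. The step lay at 875 kb with 25 kb bins, at 850 kb with 3 levels (added after the data were seen) and at 4500 kb by regions per bin, where the measure itself differs. Merging neighbours within 500 bp gave differences of 0.623 in score and 5075 bp in width. Means in place of medians gave 0.466 and 4290 bp, a limit at 0.5 Mb 0.638 and 3828 bp, and a limit at 1.5 Mb 0.296 and 1171 bp. A limit at 0.9 Mb gave a score difference of 0.586 and regions under 3 kb one of 0.163, both added after the data were seen. With 50% reciprocal overlap the shares were 33.3%, 62.7% and 67.7%, and combined regions overlapping 1 named replicate made up 52.3% to 60.7%. The cause of these shifts was not tested. No paired analysis was possible because the inputs, which share the replicate numbers, have no region list. Unknown depth limits what a missing region means.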

Other observations

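Some of the highest-scoring combined-list regions of the interval are listed in neither replicate. The first by score of all 562 is 2L 22800221 to 22801221, with a score of 3.13 at the 99.7 percentile, and at 1001 bp it has the smallest width in the list. With it stand 22788099 to 22791432 (score 2.24, 3334 bp) and 22796083 to 22797083 (score 1.88, 1001 bp). All 3 lie 211 to 222 kb from the proximal end, between 1948 and 7808 bp from the nearest region of either replicate. A further one, 22572557 to 22573617 (score 1.37, 1061 bp), lies 223 bp from a replicate 1 region and 201 bp from a replicate 2 region. In the dense stretch 4 of 9 combined regions found in neither replicate are in the highest-scoring 10% of the list, against 0 of 169 from 0.9 to 5 Mb and 247 of 4104 in the whole list. Among all combined regions of these zones it was 39 of 76 (51.3%) and 18 of 486 (3.70%). The 4 of 9 are thus near the share of their own zone. The highest of those 169 is the lone region inside the bare stretch at 21402146 to 21546426, at 21479145 to 21480154. It has a score of 0.982 and a width of 1010 bp, and it lies 66272 bp from the nearest replicate 1 region and 73636 bp from the nearest replicate 2 region. At the proximal edge of that bare stretch, the combined region 21545602 to 21550513 (score 0.982) overlaps a replicate 1 region with a score of 2.18, the highest of replicate 1 from 0.9 to 5 Mb and at the 98.97 percentile of its list, and no replicate 2 region. These regions were picked after their values were seen. How the combined list was made is not stated in the labels or headers.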
